A study of Mus musculus with 2 samples.

Results

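The colony-stimulating factors and their receptors were read on 2 arrays, 1 of RAW264.7 macrophages kept with vehicle and 1 of RAW264.7 macrophages treated with IR-61. The set held 10 genes, chosen by name: the ligands Csf1, Il34, Csf2 and Csf3, and the receptor genes Csf1r, Csf2ra, Csf2rb, Csf2rb2, Il3ra and Csf3r. Every probe whose transcript accession belonged to one of these genes was taken, which gave 16 probes out of 27224 probes with a gene name. Of the 10 genes, 8 were well above background on both arrays, among 16888 such genes of 20655 named on the array. The other two, Csf2 and Csf3, stayed near background on each array.

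RAW264.7 is a mouse macrophage-like line derived from the ascites of a tumour induced by Abelson murine leukemia virus in an adult male BALB/c mouse. IR-61 is a near-infrared fluorescent heptamethine cyanine dye from a class described as mitochondria-targeting. Both cultures grew in DMEM with heat-inactivated serum for 24 h, and one of them received IR-61 (10 μM by the legend of the study). Each condition was 1 culture on 1 array, and the pair of arrays shared a design, a scan time and a scan identifier. With 1 array per condition, no difference below has a replicate check and no p-value is given.

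Colony-stimulating factors are secreted glycoproteins that drive the growth, survival and maturation of myeloid cells. CSF1 and IL-34 both bind the receptor tyrosine kinase CSF1R, on which most macrophages depend. GM-CSF, the product of Csf2, binds an alpha chain of its own, CSF2RA, together with the common beta chain CSF2RB, which IL-3 and IL-5 receptors also use; mice carry in addition a close copy, CSF2RB2, that serves IL-3 only. G-CSF, the product of Csf3, acts through CSF3R, the main growth factor receptor of neutrophils.

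The signals were processed spot intensities, on an arbitrary scale that differs from probe to probe, so levels of different genes were not set against each other. Among the probes of a gene, signal was used to choose the brightest. The IR-61 array was 1.40-fold brighter at the 75th percentile of its probes, a log2 difference of 0.49. Each log2 signal was therefore taken relative to the 75th percentile of its own array, and differences are IR-61 minus vehicle on this scaled log2 scale. Their error is the SD expected from the scatter of repeated spots within an array. The scanner software's own error for a spot, about 10% of the signal, would give an SD of about 0.20 for most probes, and neither error holds the variation between cultures. Over all 16888 measured genes, the median difference was 0.10, the middle 95% lay between −0.81 and 0.93, and 38.8% lay below 0.

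The brightest probes of Csf1, Il34, Csf1r and Csf3r differed by 0.13 or less on the log2 scale. Those of Csf2rb and Csf2rb2, the genes of the beta chains, were lower with IR-61 by 1.75-fold and 1.69-fold, while Csf2ra and Il3ra, the genes of the alpha chains, were lower by 1.21-fold and 1.1-fold. No gene of the set passed 2-fold by its brightest probe, where 1.39% of all measured genes were lower and 1.99% were higher by that much. At 1.5-fold, 2 of the 8 measured genes were lower and 0 were higher, against 5.68% and 9.79% of all measured genes. The median difference of the 8 genes was −0.05. By probe, 1 of the 14 measured probes was lower by 2-fold or more and 0 were higher, against 1.49% and 2.02% of all measured probes. At 1.5-fold, 5 probes were lower and 2 higher, where the shares of all measured probes were 6.52% and 9.12%.

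**Figure D1:**
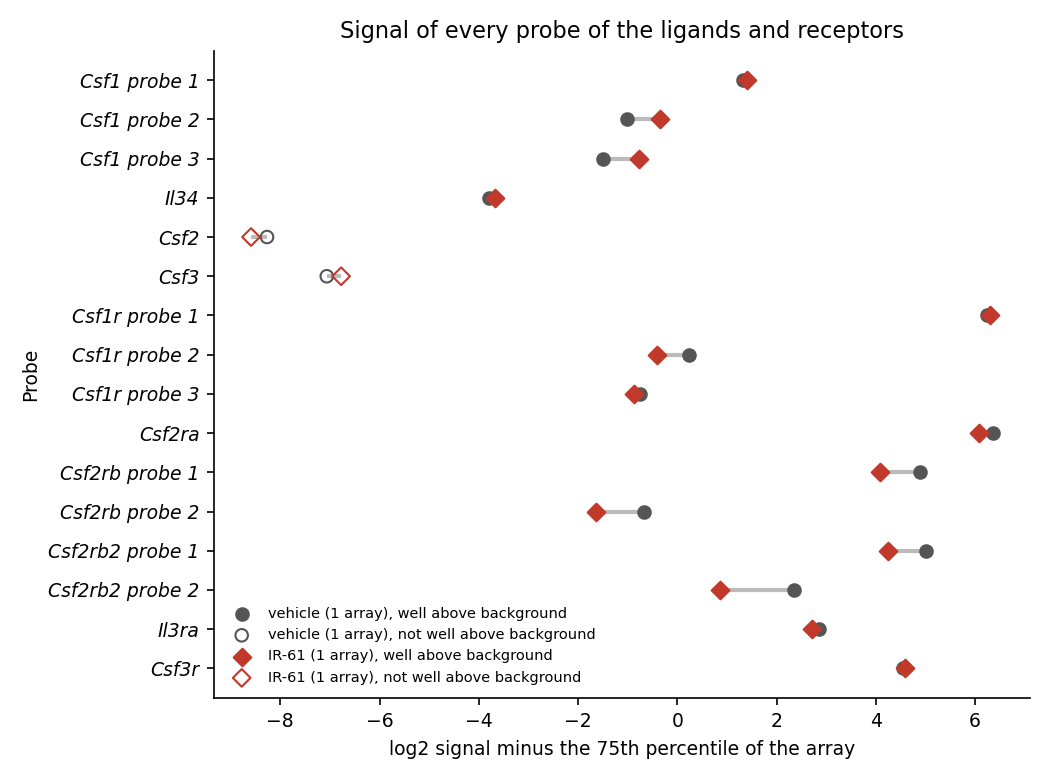
Scaled signal of all 16 probes of the 10 genes on the vehicle array (grey circles) and the IR-61 array (red diamonds), as log2 signal minus the 75th percentile of the array, with open symbols for probes not well above background and a grey line joining both arrays. Open symbols mark Csf2 and Csf3; the receptor probes Csf2rb, Csf2rb2 and Csf1r probe 2 have their diamond to the left of their circle by more than 0.60.

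Promoter sequences came from a RefSeq table on the mouse assembly GRCm38.p6, and those of 6 of the 10 genes were searched. A chromosome filter was applied to the members but not to the promoters behind the shares below. The promoters of Csf3, Il34, Csf1r and Csf2rb were not read, so nothing is said here of their motifs. The 250 bases before the annotated transcript start were searched on both strands for an NF-kB motif, for the AP-1 motif TGANTCA and for GAGGAAG, a core sequence bound by PU.1 (the product of Spi1, a transcription factor of myeloid receptor genes). Among all 32851 promoters of the table, 3.9%, 6.75% and 10.6% held these motifs. The Csf1 promoter held 1 NF-kB match on the minus strand, 154 bases before the start. The Csf2ra promoter held 2 overlapping PU.1 matches, 14 and 8 bases before the start, and those of Csf2rb2 and Csf3r held 1 each, 168 and 86 bases before it. Those of Csf2 and Il3ra held none of the 3 motifs in this window. The promoters of Csf1, Csf2ra and Csf2rb2 are shown because their genes are, in turn, the ligand whose probes disagreed and an alpha and a beta chain with unequal differences. Each is written 5′ to 3′ on the strand of the gene, which is the minus strand for all 3, with the matched letters in capitals. They span chr3:107760470-107760719 for Csf1, chr19:61228419-61228668 for Csf2ra and chr15:78305722-78305971 for Csf2rb2.
Csf1: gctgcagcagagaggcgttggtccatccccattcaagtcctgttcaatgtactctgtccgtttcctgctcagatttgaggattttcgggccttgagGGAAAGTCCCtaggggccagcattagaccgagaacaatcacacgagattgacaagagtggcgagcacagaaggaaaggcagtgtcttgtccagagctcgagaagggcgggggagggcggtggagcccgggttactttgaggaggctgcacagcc
Csf2ra: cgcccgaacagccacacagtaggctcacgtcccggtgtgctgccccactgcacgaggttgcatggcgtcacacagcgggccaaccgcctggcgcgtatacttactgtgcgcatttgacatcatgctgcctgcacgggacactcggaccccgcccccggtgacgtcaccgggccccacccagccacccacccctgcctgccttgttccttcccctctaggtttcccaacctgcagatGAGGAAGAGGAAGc
Csf2rb2: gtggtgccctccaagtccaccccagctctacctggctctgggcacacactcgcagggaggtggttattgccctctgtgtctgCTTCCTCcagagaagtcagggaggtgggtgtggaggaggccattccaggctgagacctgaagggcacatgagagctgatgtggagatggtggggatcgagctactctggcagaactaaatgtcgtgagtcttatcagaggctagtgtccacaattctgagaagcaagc

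Among the ligands, Csf1 encodes M-CSF and was read by 3 probes. The brightest, for transcript NM_007778, was printed 10 times, and its mean signal was 3179 with vehicle (10 spots) and 4671 with IR-61 (8 spots, after 2 with an outlier flag were left out). Before scaling, every IR-61 spot was above every vehicle spot, at 4507 to 4975 with a median of 4617 against 2833 to 3466 with a median of 3192. After scaling, the spots overlapped, at 1.33 ± 0.093 (SD, n = 10 spots) with vehicle and 1.40 ± 0.053 (SD, n = 8 spots) with IR-61. The difference was 0.07 ± 0.032, below the median of all measured genes.

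The other two Csf1 probes, both for transcript NM_001113530, gave larger differences. One read 627 with vehicle and 1399 with IR-61, a difference of 0.67 ± 0.19, or 1.59-fold higher. The other read 446 and 1038, a difference of 0.73 ± 0.19, or 1.66-fold higher. These were higher than the differences of 93.1% and 94.6% of all measured genes, and they lay 0.60 ± 0.19 and 0.66 ± 0.19 above that of the brightest probe. They differed from each other by 0.06 ± 0.27. The files give no probe sequences, so which exons or 3′ ends these probes read was not analysed here. The choice of scaling turned the sign of the brightest probe, which was −0.016 when the arrays were scaled by their medians, while the other two kept a higher signal with IR-61 under 9 settings (0.57 to 1.16 and 0.65 to 1.22).

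Il34 encodes the second ligand of CSF1R. Its probe was dim, at 90.6 with vehicle and 139 with IR-61. The difference of 0.13 ± 0.23 was smaller than its own error. Over the settings it ran from −0.01 to 0.61.

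Csf2 encodes GM-CSF, and its probe was also printed 10 times on each array. With vehicle its spots read 2.54 to 10.9 with a median of 3.13, and with IR-61 they read 3.40 to 8.99 with a median of 3.69. None of the 20 spots was well above background; the lowest signals that reached this were 11.4 with vehicle and 14.5 with IR-61. Csf3, which encodes G-CSF, read 9.45 with vehicle and 16.2 with IR-61 on 1 spot per array, neither well above background. No fold change is given for either gene.

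**Figure D2:**
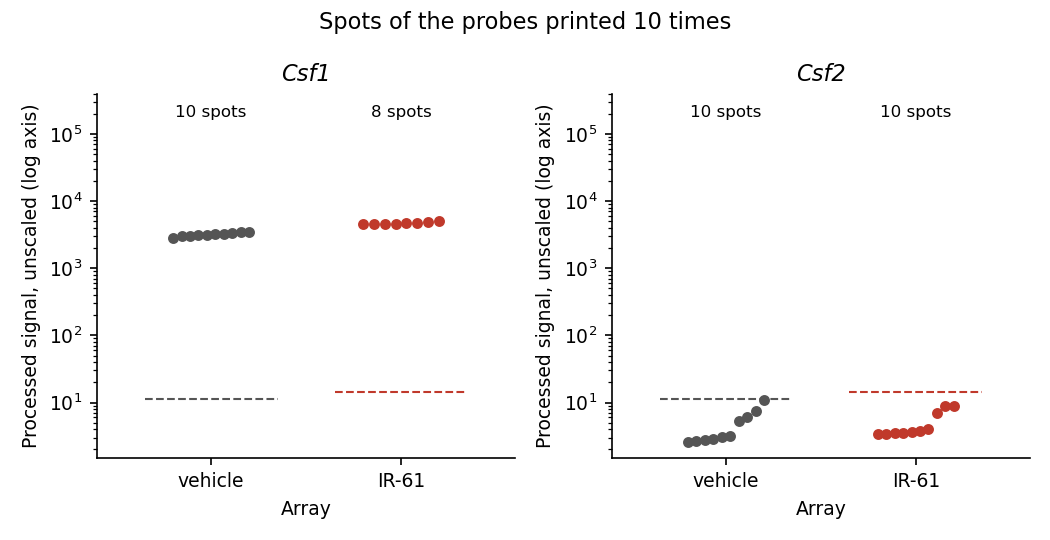
Processed signal before scaling (log axis) of each spot of the probes printed 10 times, for Csf1 (left) and Csf2 (right), on the vehicle and the IR-61 array, with a dashed line at the lowest signal called well above background on that array. The Csf1 spots sit between 2833 and 3466 with vehicle and between 4507 and 4975 with IR-61, and the Csf2 spots sit below the dashed lines.

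Among the receptors, Csf1r encodes the tyrosine kinase for CSF1 and IL-34 and was read by 3 probes for transcript NM_001037859. The brightest read 95036 with vehicle and 139205 with IR-61, a difference of 0.06 ± 0.095. The second read 1488 and 1335, a difference of −0.64 ± 0.095, and was one of the 3 member probes outside the beta chain genes that passed 1.5-fold. The third read 752 and 970, a difference of −0.12 ± 0.23. Thus the probes of this gene did not give one value: the brightest and the second lay 0.71 ± 0.13 apart. Among 4160 genes with several measured probes, the range between probes had a median of 0.37, and 80.1% of these genes had a smaller range than Csf1r, 76.7% than Csf1, 82.5% than Csf2rb2 and 25.2% than Csf2rb. The second probe was lower with IR-61 under all 9 settings (−0.73 to −0.16), whereas the sign of the brightest (−0.02 to 0.55) and of the third (−0.20 to 0.37) depended on the setting.

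Csf2ra encodes the alpha chain that gives the GM-CSF receptor its ligand specificity. Its probe read 103261 with vehicle and 119251 with IR-61, a difference of −0.28 ± 0.095, and 16.6% of all measured genes had a lower one. It kept this sign under the settings that scaled the arrays, from −0.36 with median scaling to −0.18 in the deposited log2 values. With no scaling it was 0.21.

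Csf2rb encodes the common beta chain, the signalling subunit of the receptors for GM-CSF, IL-3 and IL-5, and was read by 2 probes. The brighter read 37405 with vehicle and 29987 with IR-61, and the dimmer read 793 and 567. Both signals were thus lower on the IR-61 array even before its greater brightness was taken into account. The differences were −0.81 ± 0.095 and −0.97 ± 0.23, or 1.75-fold and 1.96-fold lower, and the probes lay within 0.17 ± 0.25 of each other. Of all measured genes, 2.48% and 1.5% had lower differences.

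Csf2rb2 encodes the second beta chain, which serves the IL-3 receptor only. Its brighter probe read 40747 with vehicle and 33808 with IR-61, a difference of −0.76 ± 0.095, or 1.69-fold lower. Its dimmer probe read 6475 and 3202, a difference of −1.5 ± 0.095, or 2.84-fold lower, and was the member probe that passed 2-fold. Of all measured probes, 0.397% had a lower difference. The probes of Csf2rb2 lay 0.75 ± 0.13 apart, so the size of its difference depended on the probe and its direction did not.

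The 4 probes of the beta chain genes were lower with IR-61 under all 9 settings, between −1.59 and −0.27. The value nearest 0 came without scaling, and under the 8 settings with scaling the range was −1.59 to −0.70. Csf2rb and Csf2rb2 lie side by side on chromosome 15 with no protein-coding gene between them and resemble each other in sequence. Whether a probe of one also bound the transcript of the other was not tested, so the 4 probes may not be 4 separate readings.

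Il3ra encodes the alpha chain of the IL-3 receptor. Its probe read 9108 with vehicle and 11662 with IR-61, a difference of −0.13 ± 0.095, which became 0.36 with no scaling. Csf3r, the receptor gene of G-CSF, read 29602 and 42454, a difference of 0.03 ± 0.095 that ran from −0.05 to 0.52 over the settings. Both lay well inside the middle 95% of all measured genes, of which 26.7% and 42.0% had lower differences.

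**Figure D3:**
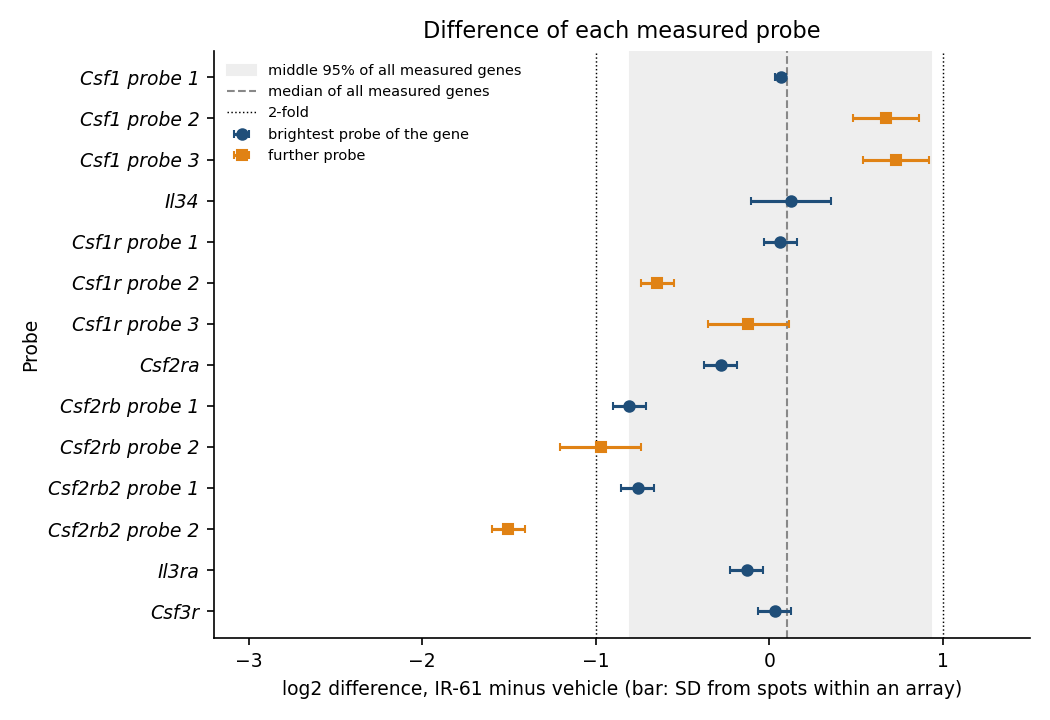
Scaled log2 difference, IR-61 minus vehicle, of each of the 14 measured probes, with the SD from spots as the bar, blue circles for the brightest probe of a gene and orange squares for further probes, over the middle 95% (grey band) and the median (dashed line) of all measured genes. Csf2rb2 probe 2 at −1.5 lies beyond the 2-fold line, and Csf2rb probe 2 at −0.97 lies just inside it.

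**Figure D4:**
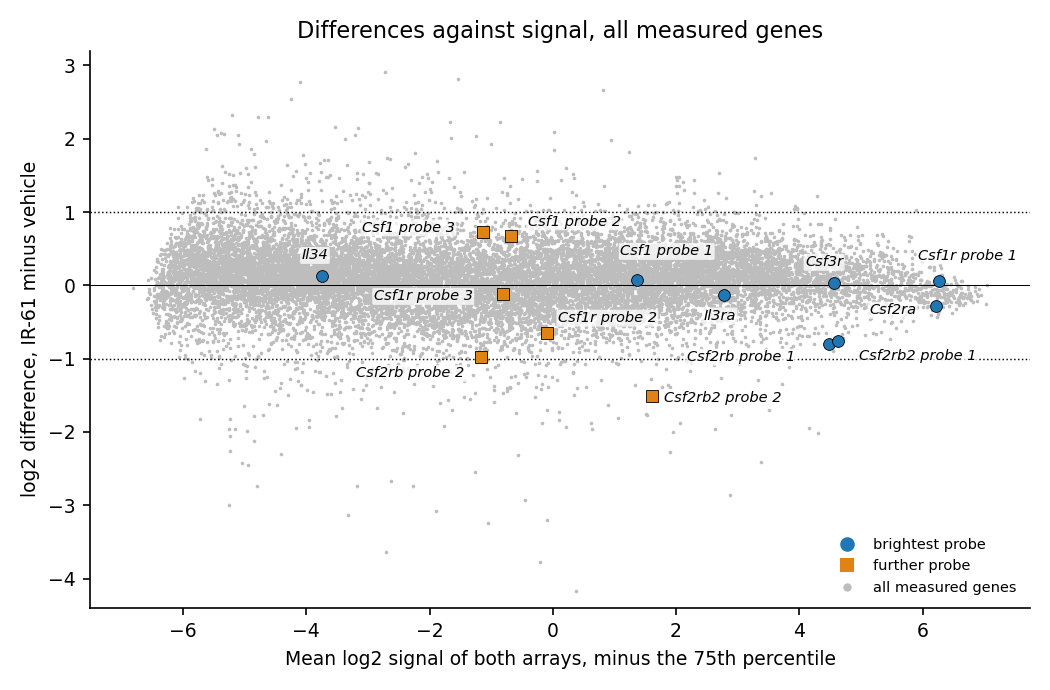
Scaled log2 difference of every measured gene (grey points) and of the member probes (blue circles, brightest; orange squares, further probes) against the mean scaled log2 signal of both arrays, with dotted lines at 2-fold. The brighter Csf2rb and Csf2rb2 probes fell in the broad range of mean log2 signals of 10 or more before scaling. Of the 7505 measured genes in that range, 1.83% and 2.31% had lower differences than these probes.

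The cells were checked against cell type markers. All 7 macrophage markers with a named probe were well above background on both arrays, as were 16888 of the 20655 named genes. By 1.5-fold or more, 3 were higher and 2 lower with IR-61, where the shares of all measured genes were 9.79% and 5.68%. Their median scaled difference was −0.04. Adgre1, which encodes F4/80, rose by 1.03 on the log2 scale (0.94 under median scaling), with 0.85 by its other probe. Fcgr1 and Itgam, the genes of an Fc receptor and an integrin chain, were at 0.99 and 0.65. Mertk was at −0.04, Lyz2 at −0.18, Spi1 at −0.83 and Cd14, an endotoxin co-receptor gene, at −0.98. Genes that mark other cell types were also read well above background. The granulocyte markers, which matter for Csf3r, stood at 0.17 (Elane), 0.40 (S100a8) and 0.64 ± 0.40 (Mpo) on the scaled log2 scale. The fibroblast markers Col1a1, Pdgfra and Dcn stood at 0.62, 0.33 and −0.09. The T cell markers Cd3e and Cd3d were at −0.0036 ± 0.23 and −0.41 ± 0.51. Of the B cell markers, Ms4a1 fell by 1.46 ± 0.23, while Cd79a was at 0.14 ± 0.51. Of the 3 epithelial markers, Epcam and Cdh1 were not well above background, and Krt8 was at −0.41 ± 0.51. The part of these markers in the receptor values was not tested. A change in the share of cells carrying a transcript and a change in its amount per cell cannot be told apart on these arrays.

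Closest to the beta chain receptors stand IL-3, IL-5 and the IL-5 alpha chain. Il5 was well above background on neither array. Il3 and Il5ra were dim, with differences of 0.21 ± 0.51 and −0.07 ± 0.23, both smaller than their errors.

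Of 14 other haematopoietic growth factor and receptor genes, 11 were measured on both arrays, 2 with a difference below 0 (38.8% of all measured genes) and 9 above, with a median of 0.28 beside the 0.10 of all measured genes. Lifr, the receptor gene for leukaemia inhibitory factor, rose from 227 to 703, a difference of 1.14 ± 0.23 (2.20-fold), but its other two probes gave 0.29 and 0.44, and the first gave 0.86 under normexp, a model-based background correction. Kitl, which encodes stem cell factor, had the lowest value at −0.36. Lif itself was well above background with vehicle (36) and not with IR-61 (15.2), and these signals lay 3.32-fold apart after scaling. Epo was well above background with IR-61 only, at least 1.24-fold higher, and Kit was so on neither array. An "at least" fold sets the brighter array against the lowest signal well above background on the other. Neither it nor the fold of Lif includes the spot error. For 1 spot with a log2 signal under 6, that SD was 0.37 with vehicle and 0.34 with IR-61.

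Of 13 genes for proteins that act on or beside CSF1R, all were measured. Sdc1, which encodes the proteoglycan syndecan-1, fell from 5813 to 3893, a difference of −1.07 ± 0.095 (2.09-fold), which was −0.58 with no scaling. Adam10, a sheddase gene, was highest at 0.51. The remaining genes lay between them, and the median of the list was 0.02.

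All 21 genes for kinases, adaptors and phosphatases near the receptors were measured, 12 below 0 (38.8% of all measured genes) and 9 above, with a median of −0.06. Fgr, a Src family kinase gene, fell from 2381 to 1474, a difference of −1.18 ± 0.095 (2.27-fold), which was −0.69 with no scaling. Grb2, which encodes an adaptor that links receptor tyrosine kinases to Ras, was highest at 0.62 ± 0.095, with 0.38 by its other probe.

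Downstream, 9 of 10 genes for STAT factors and their feedback inhibitors were measured. None passed 2-fold, where 1.39% of all measured genes were lower and 1.99% were higher by that much. Socs3 and Cish, which encode inhibitors induced by cytokine receptors, were lowest, at −0.80 ± 0.095 and −0.76 ± 0.23, while Socs1, which encodes another such inhibitor, was at 0.49 ± 0.23. Socs3 read 10481 with vehicle and 8472 with IR-61. Stat5b was highest, at 0.52 and 0.53 by its probes, and the median was 0.03. Pias3 was well above background with IR-61 only. Of 12 genes that respond to STAT5 or mark growth, 6 were below 0 (38.8% of all measured genes) and 6 above. Their median was −0.02, beside the 0.10 of all measured genes. Myc had the lowest value at −0.88 ± 0.23 (814 and 621) and Id1 the highest at 0.53 ± 0.095. None of these 12 genes passed 2-fold, beside the same 1.39% and 1.99% of all measured genes.

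Of 17 genes for transcription factors tied to Csf1r or Csf3r, 15 were measured, 10 below 0 (38.8% of all measured genes) and 5 above, with a median of −0.29. Ets2, an ETS family factor gene, fell from 1533 to 643, a difference of −1.74 ± 0.16 (3.34-fold). Maf, a transcription factor gene of macrophages, had the highest value at 0.98 ± 0.095 (7007 and 19398). Spi1 read 1002 with vehicle and 790 with IR-61. Gfi1, a repressor gene of the granulocyte lineage, was well above background with vehicle only, at least 2.98-fold lower with IR-61, and Myb was so on neither array.

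**Figure D5:**
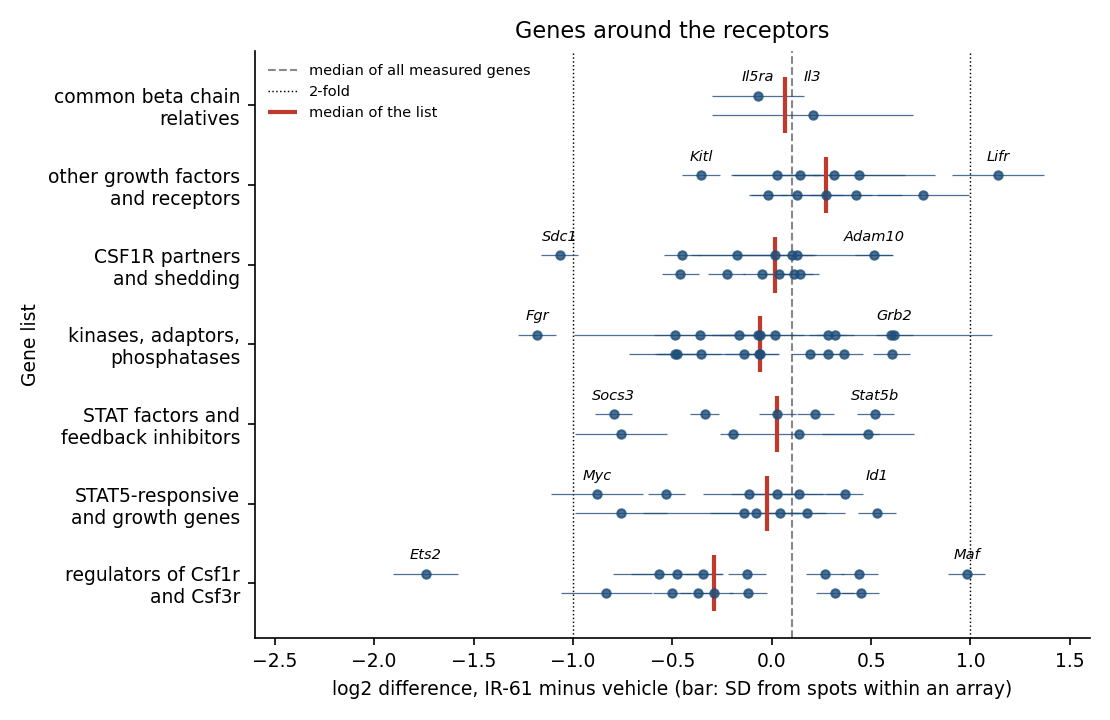
Scaled log2 difference, IR-61 minus vehicle, of the measured genes of 7 lists of genes around the receptors (points; bars are the SD from spots; red line, median of the list; dashed line, median of all measured genes; dotted lines, 2-fold), with the lowest and highest gene of each list named. Beyond the dotted lines lie Sdc1, Fgr and Ets2 on the lower side, and Lifr on the upper.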

How the data were processed

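RAW264.7 cells were profiled on 1 Agilent one-colour mouse array per condition, grouped by the agent named in the sample labels. The deposited files hold, as the authors' scanner output, the processed signal intensity of each spot from Agilent Feature Extraction, background-subtracted and detrended, with flags for outlier, saturated and well-above-background spots (version 11.0.0.1 in the submitters' processing notes, 11.0.1.1 per the file headers, which name the genome build mm9). They also deposited log2 values per probe, made in a way not given in the sources used here; both columns share their quartiles, at 4.59 and 10.66.

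Each file held 44397 spots. Control spots and outlier spots (124 with vehicle, 139 with IR-61) were left out, no spot was saturated, and the log2 intensities of a probe's spots were averaged, leaving 39419 probes. The 75th percentile of each array was subtracted. Probes were named through RefSeq accessions without version (27224 probes, 20655 genes; GRCm38.p6 table, names only). A probe was measured when at least 0.5 of its spots were well above background on both arrays (77.6% of probes with vehicle, 81.2% with IR-61, on 1 array each); a gene took its brightest probe. Calls were differences of 2-fold or more, with no test. Spot error was pooled within arrays by signal range from probes with 5 or more spots. Members and lists were chosen with earlier results of these data known. Named genes were all members, each list's lowest and highest gene, and markers; genes measured on 1 array or neither, Cish, Socs1 and Spi1 were added after their values were seen.

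Alternatives were scaling by the median or by the 75th percentile of measured probes, quantile normalization, loess (span 0.3), no scaling, the deposited log2 values, normexp (offset 50) on the median signal, outlier spots kept, probe means, no filter, and 1.5-fold and 3-fold limits. The 9 settings that give a probe its own value include the main one. Code was tested on simulated data. Python 3.11.15, numpy 2.4.6, pandas 2.3.3, statsmodels 0.14.6, R 4.3.3 and limma 3.58.1 were used. Protein sequences were not analysed here, and 1 gene of the transcription factor list, left out of that list's counts and median, and 1 marker gene are not reported here.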

Additional observations from a re-analysis of the deposited data

How the results depend on the processing

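With 1 array per condition, differences between cultures and effects of IR-61 cannot be told apart, and the number of arrays limits the precision. No paired analysis was possible because there was a lone array of vehicle and of IR-61 cells, which no test can compare. The signs of Csf2rb and Csf2rb2 were the same in every setting. No scaling leaves the brightness of the IR-61 array in each value and moved the median of all genes from 0.10 to 0.59; normexp moved it to −0.03. Of all genes past 2-fold, 41.2% were lower, a share of 54.2% with median scaling, 52.1% with quantile normalization, 52.2% with loess, 51.4% in the deposited log2 values, 54.6% with normexp and 3.23% with no scaling.

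By their brightest probes, Csf1 turned to −0.016 with median scaling, and Csf2ra and Il3ra turned to 0.21 and 0.36 with no scaling. With the probes of a gene averaged, Csf1 went from 0.07 to 0.49 and Csf1r from 0.06 to −0.23. The number of members lower by 2-fold went from 0 to 1 (Csf2rb2) when probes of a gene were averaged and to 2 with a 1.5-fold limit. Of all genes, 235 were lower and 336 higher by 2-fold. These counts were 72 and 2156 with no scaling, 149 and 124 with normexp, 440 and 921 with no filter on dim probes, 960 and 1653 at 1.5-fold, and 64 and 50 at 3-fold.

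List medians moved as follows. With no scaling, those of the kinases and of the transcription factors tied to Csf1r and Csf3r turned to 0.43 and 0.20, and those of the beta chain relatives, other growth factors, CSF1R partners, STAT factors and STAT5-responsive genes were 0.56, 0.76, 0.51, 0.52 and 0.46. With median scaling, other growth factors were at 0.19, CSF1R partners at −0.065, kinases at −0.14, STAT factors at −0.054, STAT5-responsive genes at −0.11 and transcription factors at −0.37. With the 75th percentile of measured probes, transcription factors were at −0.33. Other growth factors, CSF1R partners, kinases and transcription factors were at 0.15, −0.036, −0.13 and −0.20 with quantile normalization and at 0.16, −0.036, −0.13 and −0.19 in the deposited log2 values. Loess put other growth factors at 0.15, kinases at −0.12 and transcription factors at −0.25. Normexp put other growth factors at 0.19, STAT factors at −0.17 and transcription factors at −0.33. The cause of these moves was not tested beyond the construction of each setting.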
